A study of Mus musculus with 6 samples.

Results

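Genes that carry fatty acids into triglyceride, pack it into lipid droplets and release it again were followed in 6 mouse livers, 36 genes in all out of 16426 listed in at least 1 library. They were chosen by symbol: 5 for fatty acid uptake and binding, 4 acyl-CoA synthetases, 10 for glycerolipid acylation, 10 for droplet proteins and 7 for lipolysis. Of the libraries, 3 came from livers of mice given an AAV8 vector with a short hairpin RNA (shRNA) against S1pr2, a receptor for sphingosine-1-phosphate, and were set against 3 from livers of mice given AAV8 with a scrambled shRNA. The mice were wild type, of a mixed B6:sv129 background, 7 to 12 weeks old. The series text describes males given dexamethasone, a synthetic glucocorticoid, at about 0.84 mg/kg in drinking water for 7 days. That treatment would be shared by both groups, the sample labels do not name it, and no untreated liver was analysed here. The vector went into the tail vein. The sources used here do not give the promoter driving the hairpin, its sequence or whether each library is a separate animal, and p-values therefore reflect only how these samples spread.

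In hepatocytes, fatty acids enter through carriers and are trapped as acyl-CoA by long-chain acyl-CoA synthetases. Glycerol-3-phosphate is then acylated by GPAT and AGPAT enzymes, dephosphorylated by lipins and acylated again by DGAT enzymes to triglyceride. The product is stored in droplets coated by perilipins and CIDE proteins, or is hydrolysed by ATGL and later lipases, with ABHD5 as the activator and G0S2 as the inhibitor of ATGL. Fatty liver is the state in which these droplets accumulate in hepatocytes.

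The libraries held 16558775 to 17410160 expected counts and listed 14522 to 15106 genes. S1pr2 (Entrez gene 14739), the target, had 3.04, 2.20 and 2.22 CPM (read counts scaled to the normalised library size) in S1pr2 shRNA livers 1 to 3, against 4.41, 5.23 and 6.66 CPM in scramble livers 1 to 3. Its log2 fold change was -1.12 (SE 0.24, BH-adjusted p = 0.0301 by the quasi-likelihood test of edgeR, where BH stands for Benjamini-Hochberg), and 46.0% of the transcript remained. The exact two-sided permutation p over 20 assignments was 0.1, which is the smallest for groups of 3. Its call was lost without S1pr2 shRNA liver 2 (edgeR BH-adjusted p = 0.117) or 3 (0.101), and without scramble liver 2 (0.0785) or 3 (0.0962). On FPKM, the deposited level per transcript length, it was lost as well (log2 fold change -0.90, limma adjusted p = 0.0677, pseudocount 0.1), as it was with the replicate number as a block (edgeR adjusted p = 0.0684). Hepatocyte markers were abundant in all 6 libraries (8 genes, summed FPKM 51647 to 66216 in S1pr2 shRNA and 61482 to 77610 in scramble livers). Of the 8, 0 passed the test, and log2 fold changes were negative for 7 and positive for 1 (median -0.25). Alb, the highest of them by FPKM, was at -0.59 (edgeR BH-adjusted p = 0.198), with no overlap. The positive one, Apoa1, was at 1.08 (edgeR BH-adjusted p = 0.199), also with no overlap.

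Of the 36 genes, 34 passed the count filter, 3 fell, 1 rose and 30 did not pass the test, beside 7.66% of all 12230 tested genes that changed. At an unadjusted edgeR p under 0.05 there were 13 of 34, beside 24.5% of all tested genes. Those that fell were Cd36, a fatty acid translocase, Acsl5, an acyl-CoA synthetase, and Dgat2, which makes the last ester bond of triglyceride. The gene that rose was Fitm1, which encodes a triglyceride-binding protein of droplet formation. The 3 that fell are 8.82% of the 34 tested, beside 4.64% of all 12230 tested genes that fell, and the 1 that rose is 2.94%, beside 3.02% of all tested genes that rose. By edgeR, 0 genes fell without S1pr2 shRNA liver 2 or 3 or scramble liver 3, where 1.85, 3.32 and 3.23% of all tested genes changed. Without scramble liver 3, 0 rose. By the DESeq2 Wald test 7 fell and 1 rose, beside 12% of all tested genes that changed. Mogat1, a monoacylglycerol acyltransferase, and Cidea, a droplet-fusion protein, were below the filter. Mogat1 had 6, 2 and 11 counts in S1pr2 shRNA livers, against 31, 4 and 3 counts in scramble livers. Cidea had 1, 0 and 1 counts in S1pr2 shRNA livers, against 3, 1 and 0 counts in scramble livers.

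Counting all 34 tested genes, with those past the threshold included, more lay on the lower side. The log2 fold change was negative for 27 of 34 (79.4%), beside 48.6% of all tested genes, and its median was -0.37, beside 0.01 for all tested genes. The S1pr2 shRNA livers were all below the scramble livers for 11 of 34 genes (32.4%), beside 16.8% of all tested genes. They were all above for 2 of 34 (5.88%), beside 15.1% of all tested genes. Scramble liver 1 was the highest of the 6 for 20 of the 34 genes, which held for 24.1% of all tested genes. Without that liver, 21 of 34 log2 fold changes were negative, beside 47.9% of all tested genes, and the median was -0.13. The scaling of the deposited FPKM moved the median of all tested genes to 0.16 (pseudocount 0.1). On it 22 of 34 were negative, beside 30.5% of all tested genes, and the median was -0.15. In FPKM the S1pr2 shRNA livers were all below the scramble livers for 6 genes (Cd36, Acsl1, Acsl5, Lpin1, Dgat1 and Dgat2), beside 8.12% of all tested genes, and all above for 3 (Fitm1, Lipc and Cideb), beside 25.8%.

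**Figure D1:**
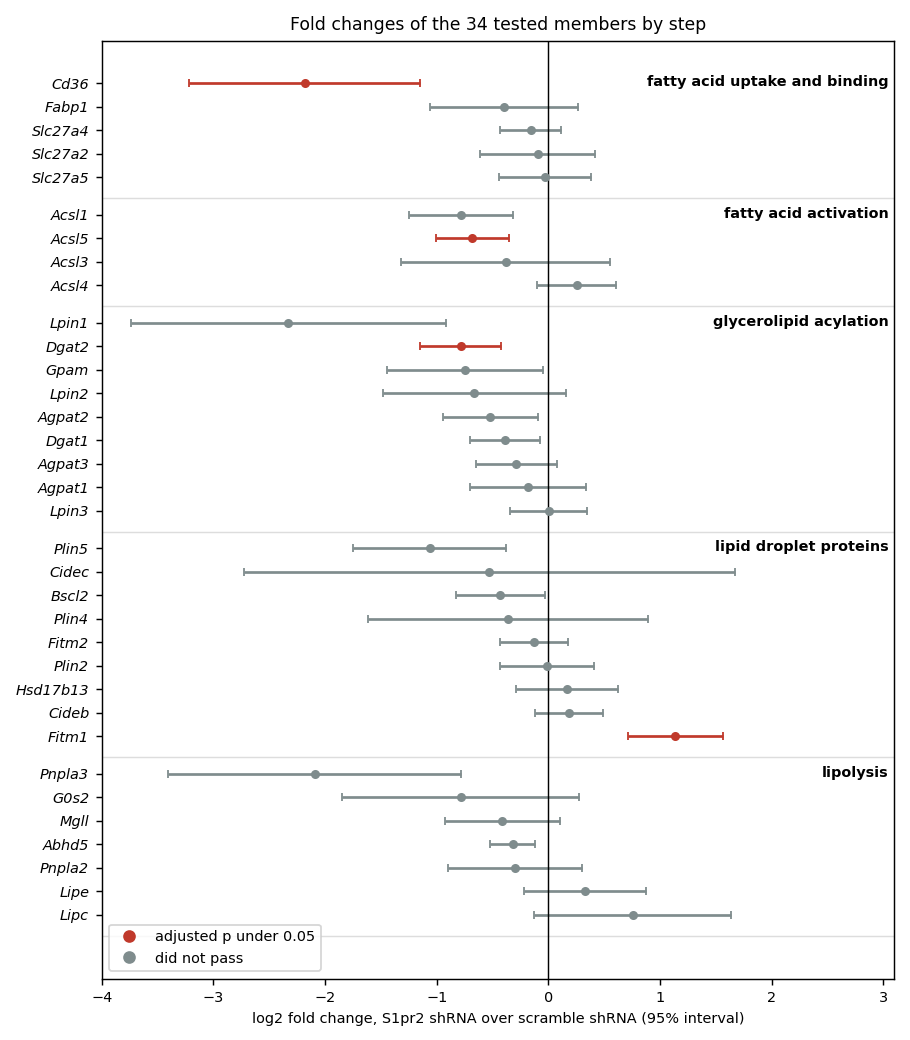
Log2 fold change of S1pr2 shRNA over scramble livers (x axis) for the 34 tested genes, grouped by step, with the 95% interval of the edgeR fit as a line and the genes past the test marked. Cd36, Acsl5 and Dgat2 lie left of 0 and Fitm1 lies right of 0, while the intervals of Lpin1 and Pnpla3 are wide.

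Of the genes that changed, Dgat2 had no promoter entry and is not shown. Promoters are shown for 4 genes, those of Cd36, Acsl5 and Fitm1, which changed, and that of Lpin1, which had the most negative log2 fold change of the 34 genes. Each runs from 250 bases before to 50 after the annotated start, 5′ to 3′ on the gene's strand, in RefSeq on GRCm38.p6; the submitters used mm9, so no position comes from their files. Capitals mark the nuclear receptor hexamer AGGTCA and the CCAAT box, on either strand (AGGTCA reads TGACCT on the other).
Cd36 promoter, chr5:17835847-17836146, minus strand: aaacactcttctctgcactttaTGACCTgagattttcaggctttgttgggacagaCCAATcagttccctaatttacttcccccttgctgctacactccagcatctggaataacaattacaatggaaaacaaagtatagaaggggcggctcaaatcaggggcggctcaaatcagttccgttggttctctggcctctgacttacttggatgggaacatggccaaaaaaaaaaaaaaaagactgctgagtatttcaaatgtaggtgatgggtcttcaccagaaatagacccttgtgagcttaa
Acsl5 promoter, chr19:55253119-55253418, plus strand: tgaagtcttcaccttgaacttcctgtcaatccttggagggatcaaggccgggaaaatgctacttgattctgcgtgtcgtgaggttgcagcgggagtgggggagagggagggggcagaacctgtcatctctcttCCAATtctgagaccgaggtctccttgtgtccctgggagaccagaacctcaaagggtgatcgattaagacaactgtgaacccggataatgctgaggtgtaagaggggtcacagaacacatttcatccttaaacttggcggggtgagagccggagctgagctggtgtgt
Lpin1 promoter, chr12:16610917-16611216, minus strand: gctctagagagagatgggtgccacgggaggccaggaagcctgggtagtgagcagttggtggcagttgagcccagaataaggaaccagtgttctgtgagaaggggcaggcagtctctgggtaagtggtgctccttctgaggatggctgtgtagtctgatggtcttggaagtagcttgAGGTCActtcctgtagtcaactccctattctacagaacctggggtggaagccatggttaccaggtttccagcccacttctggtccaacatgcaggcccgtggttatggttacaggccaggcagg
Fitm1 promoter, chr14:55575424-55575723, plus strand: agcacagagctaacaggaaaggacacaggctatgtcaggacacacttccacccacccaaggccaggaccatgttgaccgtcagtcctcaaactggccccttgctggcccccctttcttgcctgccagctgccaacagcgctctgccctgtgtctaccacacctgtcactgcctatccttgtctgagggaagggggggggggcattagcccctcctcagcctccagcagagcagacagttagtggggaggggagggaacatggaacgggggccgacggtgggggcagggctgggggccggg
The Cd36 promoter holds AGGTCA on the minus strand relative to the gene from base -228 to -223 and CCAAT from -195 to -191. The Acsl5 promoter holds CCAAT from -117 to -113, the Lpin1 promoter AGGTCA from -74 to -69, and the Fitm1 window neither. AGGTCA occurred in 16.255% and CCAAT in 37.408% of all 32851 promoters of this length, and in 13 and 15 of the 45 promoters of the 32 genes with an entry. The same search found the E-box CACGTG in 5 of those 45 promoters (of Lipe, Lpin2, Lpin3, Mgll and Plin2), beside 7.15% of all promoters, and the sterol element TCACNCCAC in 1 of the 45, of Acsl1, beside 1.242%. The palindromic glucocorticoid response element was found in 0 of those 45 promoters, beside 0.009% of all, and the D-box TTATGTAA in 0, beside 0.938%. The direct repeat of AGGTCA with a spacer of 1 base, which contains the hexamer, was found in 0, beside 0.04%, and TATAAA in 2 of the 45, of Cideb and Fabp1, beside 13.616%. These matches describe letters in a window and nothing about binding.

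Among the 5 genes of uptake and binding, Cd36 (12491) fell and the other 4 did not pass the test. Cd36 had 42.6, 30.6 and 63.2 CPM in S1pr2 shRNA livers 1 to 3, against 325, 139 and 155 CPM in scramble livers 1 to 3. Every S1pr2 shRNA liver was below every scramble liver, and scramble liver 1 stood well above the other two. It was 4.54-fold lower, at 45.4 ± 16.5 CPM in S1pr2 shRNA and 206 ± 103 CPM in scramble livers (SD, n = 3 each; log2 fold change -2.18, 95% interval -3.22 to -1.15, edgeR BH-adjusted p = 0.0351). The call was lost without S1pr2 shRNA liver 1 (edgeR BH-adjusted p = 0.106), 2 (0.115) or 3 (0.0531) and without scramble liver 3 (0.0583), and without the count filter (0.0652). The log2 fold change without scramble liver 1 was -1.69 (edgeR BH-adjusted p = 0.0398).

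Cd36 is also made by endothelial cells and macrophages, and the part of these cells in the Cd36 result was not tested. Of 9 endothelial markers, 4 passed the test as higher (Tie1, Kdr, Cdh5 and Tek) and 0 as lower. Log2 fold changes were positive for 8 and negative for 1, Lyve1 (-0.83, edgeR BH-adjusted p = 0.227, with overlap). The endothelial sum was 73.6 to 95.6 FPKM in S1pr2 shRNA and 62.9 to 66.2 FPKM in scramble livers. Of 8 macrophage markers listed, 0 passed the test, with positive log2 fold changes for 8 and negative for 0 (median 0.49). Their sum was 62.5 to 141 FPKM in S1pr2 shRNA and 42.8 to 75.8 FPKM in scramble livers. In bulk tissue, fewer cells of a type and less RNA per cell cannot be told apart. The mean length of the Cd36 transcripts, which RSEM weights by the isoforms it assigns, was 3460, 3489 and 3456 bases in S1pr2 shRNA livers, against 3424, 3430 and 3428 bases in scramble livers. This weighted length differed by 40.9 bases over 5 annotated transcripts, with no overlap between groups. Of 12 genes here whose length varied, Cd36 and Bscl2 did not overlap, beside 11.3% of all genes with varying length; the exact two-sided permutation p was 0.1 for each, the smallest possible, and 0.6 adjusted over the 12.

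The other 4 uptake genes had log2 fold changes of -0.40 to -0.03 and overlapping groups. Fabp1 (14080), the liver fatty acid-binding protein, had the highest level of all 36 genes on the FPKM scale, at 1965 ± 200 FPKM in S1pr2 shRNA and 2346 ± 805 FPKM in scramble livers (SD, n = 3 each). Its log2 fold change was -0.40 (edgeR BH-adjusted p = 0.447) and ran from -0.67 without scramble liver 1 to -0.22 without scramble liver 3. The transporter and acyl-CoA synthetase genes Slc27a2, Slc27a4 and Slc27a5 had log2 fold changes of -0.10, -0.16 and -0.03 (edgeR BH-adjusted p = 0.841, 0.453 and 0.935).

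Of the 4 long-chain acyl-CoA synthetases, Acsl5 (433256) fell and Acsl1 (14081) missed the threshold. Acsl5 had 195, 220 and 221 CPM in S1pr2 shRNA livers 1 to 3, against 387, 298 and 335 CPM in scramble livers 1 to 3. The groups did not overlap and the S1pr2 shRNA livers were close together. It was 1.60-fold lower (212 ± 14.8 CPM in S1pr2 shRNA and 340 ± 44.5 CPM in scramble livers, SD, n = 3 each; log2 fold change -0.68, 95% interval -1.01 to -0.35, edgeR BH-adjusted p = 0.0293). This call held without scramble liver 2 (edgeR BH-adjusted p = 0.0466). It was lost without S1pr2 shRNA liver 1 (0.0589), 2 (0.106) or 3 (0.0859) and without scramble liver 1 (0.0575) or 3 (0.0810). It was also lost on FPKM (limma adjusted p = 0.0556, pseudocount 0.1). Exons of Acsl5 overlap those of Zdhhc6 on the other strand, whose log2 fold change was -0.01 (edgeR BH-adjusted p = 0.953).

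Acsl1, the main hepatic synthetase of this group by FPKM, had 364, 601 and 560 CPM in S1pr2 shRNA livers 1 to 3, against 876, 875 and 872 CPM in scramble livers 1 to 3. The scramble livers were nearly equal and above all S1pr2 shRNA livers, of which liver 1 was the lowest. The log2 fold change was -0.78 (95% interval -1.25 to -0.32, edgeR BH-adjusted p = 0.0561), and Acsl1 passed without S1pr2 shRNA liver 1 (-0.59, edgeR BH-adjusted p = 0.0493) and on FPKM (-0.67, limma adjusted p = 0.0430). Acsl3 and Acsl4, which act on droplets and on arachidonate, had log2 fold changes of -0.38 and 0.25 (edgeR BH-adjusted p = 0.610 and 0.364). Acsl3 had 10.8 CPM in scramble liver 1, against 31.4 and 29.0 CPM in scramble livers 2 and 3. It passed when that low liver was left out (log2 fold change -0.73, edgeR BH-adjusted p = 0.0287). The summed FPKM of the 4 synthetases was 198, 233 and 231 in S1pr2 shRNA livers, against 344, 307 and 326 in scramble livers. Acsl4 made up 8.69, 5.20 and 4.47% of that sum in S1pr2 shRNA livers, against 3.21, 3.20 and 2.73% in scramble livers.

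**Figure D2:**
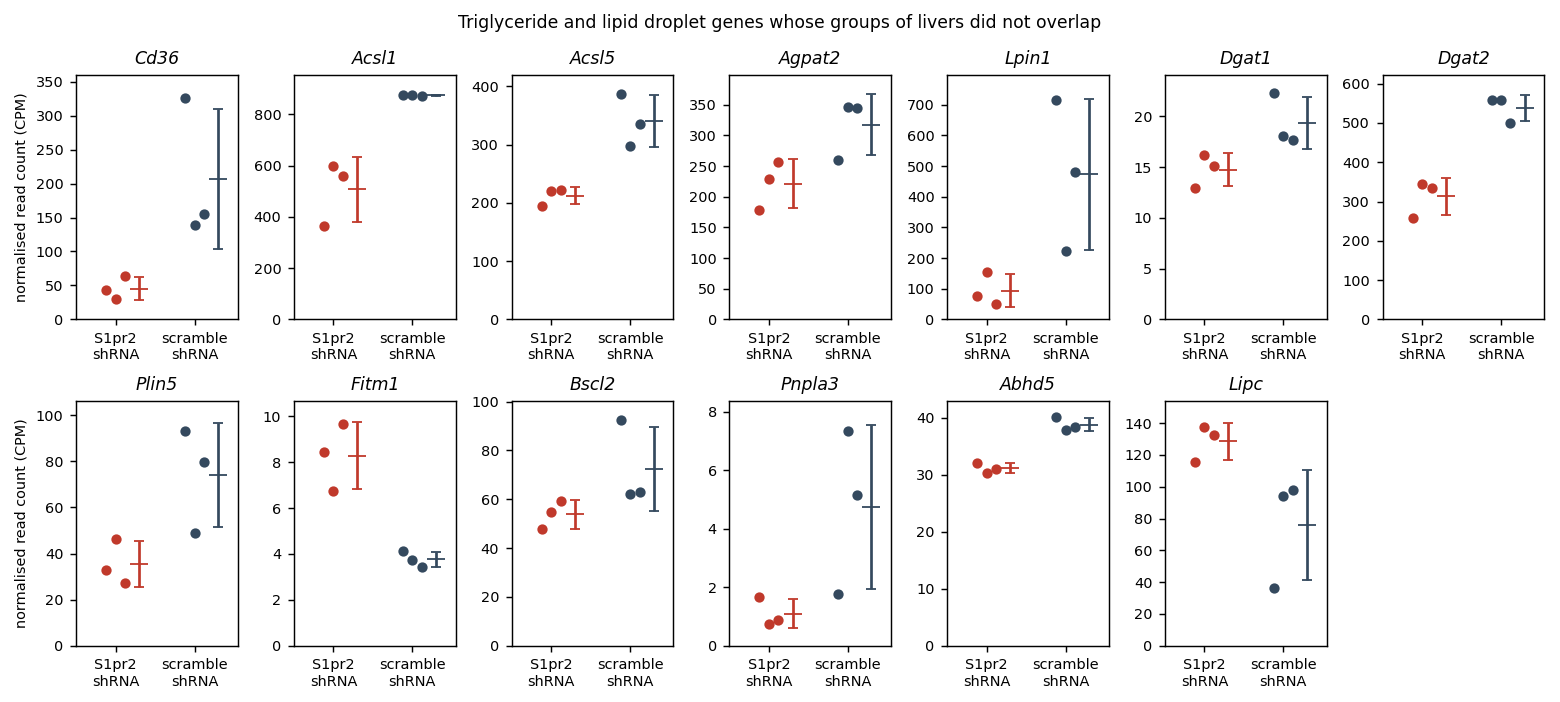
CPM in each liver (y axis, from 0) for the 13 genes whose groups did not overlap, with S1pr2 shRNA livers left of scramble livers, 1 point per liver, and the mean ± SD beside them. Lpin1 and Cd36 spread widely among the scramble livers, while Acsl1 and Abhd5 hardly vary there.

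Glycerolipid acylation held the last step and the lipins. Of 9 tested genes 1 fell, Dgat2 (67800), and 8 did not pass; the median log2 fold change was -0.52. Dgat2 had 258, 346 and 335 CPM in S1pr2 shRNA livers 1 to 3, against 558, 558 and 501 CPM in scramble livers 1 to 3. The groups stood apart, with S1pr2 shRNA liver 1 the lowest. It was 1.72-fold lower (313 ± 48.0 CPM in S1pr2 shRNA and 539 ± 33.0 CPM in scramble livers, SD, n = 3 each; log2 fold change -0.78, 95% interval -1.15 to -0.42, edgeR BH-adjusted p = 0.0253). The call held without S1pr2 shRNA liver 1 (edgeR BH-adjusted p = 0.0376). It was lost without S1pr2 shRNA liver 2 (0.0792) or 3 (0.0732) and without scramble liver 1 (0.0552), 2 (0.0757) or 3 (0.0625), with log2 fold changes of -0.86 to -0.66 over the 6 omissions.

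Dgat1 (13350), the other diacylglycerol acyltransferase, had 13.0, 16.2 and 15.2 CPM in S1pr2 shRNA livers 1 to 3, against 22.3, 18.0 and 17.7 CPM in scramble livers 1 to 3. The groups did not overlap, though S1pr2 shRNA liver 2 and scramble liver 3 were close. Dgat1 had a log2 fold change of -0.39 (95% interval -0.70 to -0.08, edgeR BH-adjusted p = 0.124). Dgat2 made up most of the summed FPKM of this pair, 94.3 ± 0.289% in S1pr2 shRNA and 95.6 ± 0.448% in scramble livers (SD, n = 3 each).

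Lpin1 (14245), a phosphatidate phosphatase that yields diacylglycerol and also works as a transcriptional coactivator, had the most negative log2 fold change of the 34 genes. It had 75.9, 155 and 51.0 CPM in S1pr2 shRNA livers 1 to 3, against 715, 223 and 480 CPM in scramble livers 1 to 3. The highest S1pr2 shRNA liver, liver 2, lay below the lowest scramble liver, also liver 2, and both groups spread over about the same proportion. This gave a log2 fold change of -2.33 (SE 0.58, 95% interval -3.74 to -0.92, edgeR BH-adjusted p = 0.0676). Lpin1 passed by the DESeq2 Wald test (adjusted p = 0.00513) and by limma-voom (adjusted p = 0.0396), and in 0 of the 6 fits without 1 liver (edgeR BH-adjusted p = 0.0509 to 0.182).

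The other lipins were further from the threshold. Lpin2 (64898) had 198, 168 and 113 CPM in S1pr2 shRNA livers, against 369, 156 and 233 CPM in scramble livers, with overlap (log2 fold change -0.66, edgeR BH-adjusted p = 0.296). Without scramble liver 1 the Lpin2 value was -0.29. Lpin3 had a log2 fold change of 0.00 (edgeR BH-adjusted p = 0.992). By FPKM, Lpin1 made up 27.2, 47.2 and 29.8% of the 3 lipins in S1pr2 shRNA livers, against 65.9, 58.0 and 66.8% in scramble livers. Lpin2 made up 69.5, 49.8 and 64.5% in S1pr2 shRNA livers, against 33.1, 39.7 and 31.8% in scramble livers. So the lipin with the larger share was Lpin2 in each S1pr2 shRNA liver and Lpin1 in each scramble liver.

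The earlier acylation steps did not pass the test. Agpat2 (67512), which makes phosphatidate, had 178, 229 and 257 CPM in S1pr2 shRNA livers 1 to 3, against 260, 347 and 345 CPM in scramble livers 1 to 3. The groups were separate in CPM by a narrow margin and overlapped in FPKM. Its log2 fold change was -0.52 (95% interval -0.94 to -0.10, edgeR BH-adjusted p = 0.129). Gpam, the mitochondrial glycerol-3-phosphate acyltransferase that opens the pathway, had 105, 113 and 156 CPM in S1pr2 shRNA livers, against 140, 301 and 185 CPM in scramble livers. Those groups overlapped (log2 fold change -0.74, edgeR BH-adjusted p = 0.179; -0.40 without scramble liver 2). Agpat1 and Agpat3 had log2 fold changes of -0.18 and -0.29 (edgeR BH-adjusted p = 0.686 and 0.309). The summed FPKM of the acylation genes was 473, 499 and 513 in S1pr2 shRNA livers, against 782, 677 and 719 in scramble livers.

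**Figure D3:**
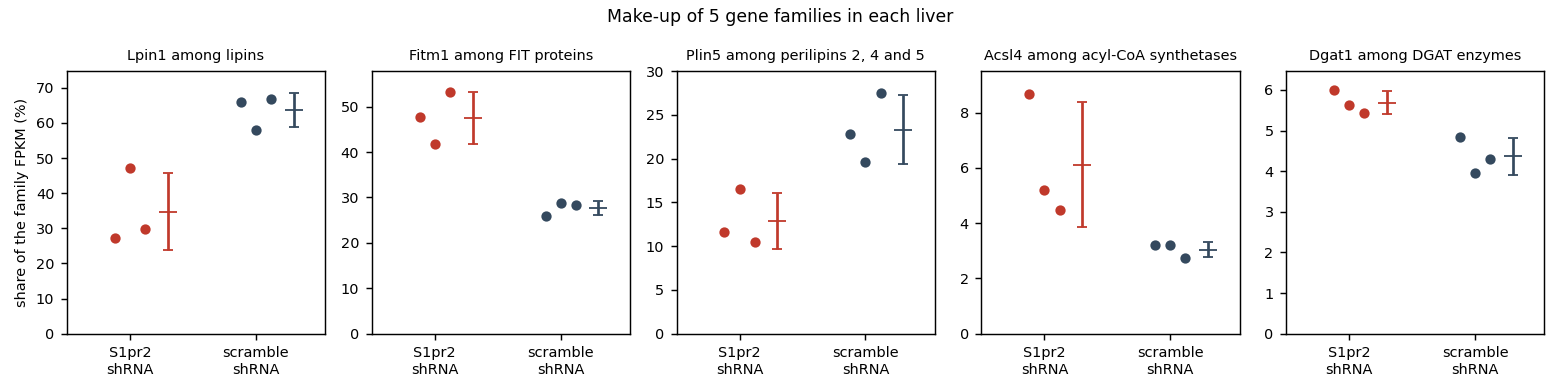
Share of each family's summed FPKM (y axis, percent) in each liver for 5 genes: Lpin1, Fitm1, Plin5, Acsl4 and Dgat1. The shares of these 5 did not overlap between groups. Those of every gene in the Agpat, Cide and Slc27a families, not drawn, did overlap. S1pr2 shRNA livers are left of scramble livers, 1 point per liver, with the mean ± SD beside them. The Lpin1 share is 27.2 to 47.2% in S1pr2 shRNA and 58.0 to 66.8% in scramble livers.

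Among the droplet proteins Fitm1 (68680) rose, 0 fell and 8 of 9 tested did not pass. Fitm1 had 8.45, 6.74 and 9.66 CPM in S1pr2 shRNA livers 1 to 3, against 4.11, 3.73 and 3.45 CPM in scramble livers 1 to 3. These levels rested on 167, 110 and 165 counts in S1pr2 shRNA and 67, 60 and 57 counts in scramble livers. All S1pr2 shRNA livers were above all scramble livers, which were close together. It was 2.20-fold higher (8.28 ± 1.47 CPM in S1pr2 shRNA and 3.76 ± 0.329 CPM in scramble livers, SD, n = 3 each; log2 fold change 1.14, 95% interval 0.71 to 1.56, edgeR BH-adjusted p = 0.0132). The call was kept in 14 of 15 alternatives and lost without scramble liver 3 (edgeR BH-adjusted p = 0.0523).

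Fitm1 is known mainly from muscle. The 6 skeletal muscle markers summed to 1.60 to 2.46 FPKM in S1pr2 shRNA and 0.62 to 1.47 FPKM in scramble livers, with 1 of 6 past the count filter and 0 past the test; their part in the Fitm1 result was not tested. An annotated antisense transcript, Gm15932, overlaps Fitm1, and without the strand handling their reads cannot be told apart. Fitm2, the more widely expressed paralog, had 16.9, 17.3 and 15.6 CPM in S1pr2 shRNA livers, against 21.6, 17.0 and 16.0 CPM in scramble livers, with overlap (log2 fold change -0.13, edgeR BH-adjusted p = 0.606). By FPKM, Fitm1 made up 47.7, 41.7 and 53.2% of the pair in S1pr2 shRNA livers, against 25.9, 28.7 and 28.3% in scramble livers.

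Plin5 (66968), a perilipin that ties droplets to mitochondria, had 32.9, 46.3 and 27.2 CPM in S1pr2 shRNA livers 1 to 3, against 93.4, 49.1 and 79.7 CPM in scramble livers 1 to 3. The groups did not overlap in CPM, with liver 2 of each close to the other, and overlapped in FPKM. Plin5 had a log2 fold change of -1.06 (95% interval -1.75 to -0.38, edgeR BH-adjusted p = 0.0760), and passed when scramble liver 2 was left out (-1.30, edgeR BH-adjusted p = 0.0356).

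Plin2 (11520), the main perilipin of liver by FPKM, had 237, 224 and 223 CPM in S1pr2 shRNA livers, against 299, 192 and 201 CPM in scramble livers. The S1pr2 shRNA values lay between the scramble values, at a log2 fold change of -0.02 (95% interval -0.44 to 0.41, edgeR BH-adjusted p = 0.970). Plin5 made up 11.7, 16.5 and 10.4% of the summed FPKM of Plin2, Plin4 and Plin5 in S1pr2 shRNA livers, against 22.8, 19.6 and 27.5% in scramble livers.

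Bscl2 (14705), which encodes seipin, a protein of droplet budding at the endoplasmic reticulum, had 47.6, 54.6 and 59.3 CPM in S1pr2 shRNA livers 1 to 3, against 92.4, 62.3 and 62.9 CPM in scramble livers 1 to 3. The gap between the groups was small beside the height of scramble liver 1, and the groups overlapped in FPKM. Bscl2 had a log2 fold change of -0.43 (95% interval -0.83 to -0.03, edgeR BH-adjusted p = 0.175). Its weighted transcript length was 1500, 1509 and 1533 bases in S1pr2 shRNA livers, against 1479, 1491 and 1499 bases in scramble livers, over 3 annotated transcripts. Reads of Bscl2 may be shared, since 4 of 6 libraries gave it counts that were not whole. Counts were also not whole in 6 of 6 libraries for Acsl3, Lpin2, Cideb, Fitm2 and Hsd17b13, and in 5 of 6 for Agpat1.

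The remaining droplet genes had overlapping CPM. Hsd17b13, a droplet-bound retinol dehydrogenase of hepatocytes, had the second highest FPKM of the 36 genes and a log2 fold change of 0.17 (edgeR BH-adjusted p = 0.667). Cideb, the hepatocyte CIDE protein, had a log2 fold change of 0.19 (edgeR BH-adjusted p = 0.449), and its S1pr2 shRNA livers were all above the scramble livers in FPKM only. Plin4 and Cidec, a droplet-fusion protein that rises in fatty liver, had log2 fold changes of -0.36 and -0.53 (edgeR BH-adjusted p = 0.735 and 0.778). Cidec had 5.72, 1.10 and 0.937 CPM in S1pr2 shRNA livers, against 7.54, 2.30 and 1.51 CPM in scramble livers, so liver 1 of each group was the highest. Both signs turned without scramble liver 1, to 0.50 for Plin4 and 0.46 for Cidec, and Cidec was -1.89 without S1pr2 shRNA liver 1. The summed FPKM of the droplet genes, most of it from Hsd17b13, Cideb and Plin2, was 956, 1015 and 1080 in S1pr2 shRNA livers, against 857, 843 and 906 in scramble livers. In CPM the groups overlapped for Hsd17b13, Cideb and Plin2. The S1pr2 shRNA livers were all above the scramble livers for 25.8% of all tested genes in FPKM and 15.1% in CPM. Adipocyte markers were low: Lep was listed in no library, and 7 listed markers, Cidea among them, summed to 10.8 to 15.0 FPKM in S1pr2 shRNA and 12.1 to 27.6 FPKM in scramble livers. Most of that sum was Fabp4, at 9.6 to 14.2 FPKM in S1pr2 shRNA and 11.5 to 26.7 FPKM in scramble livers.

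**Figure D4:**
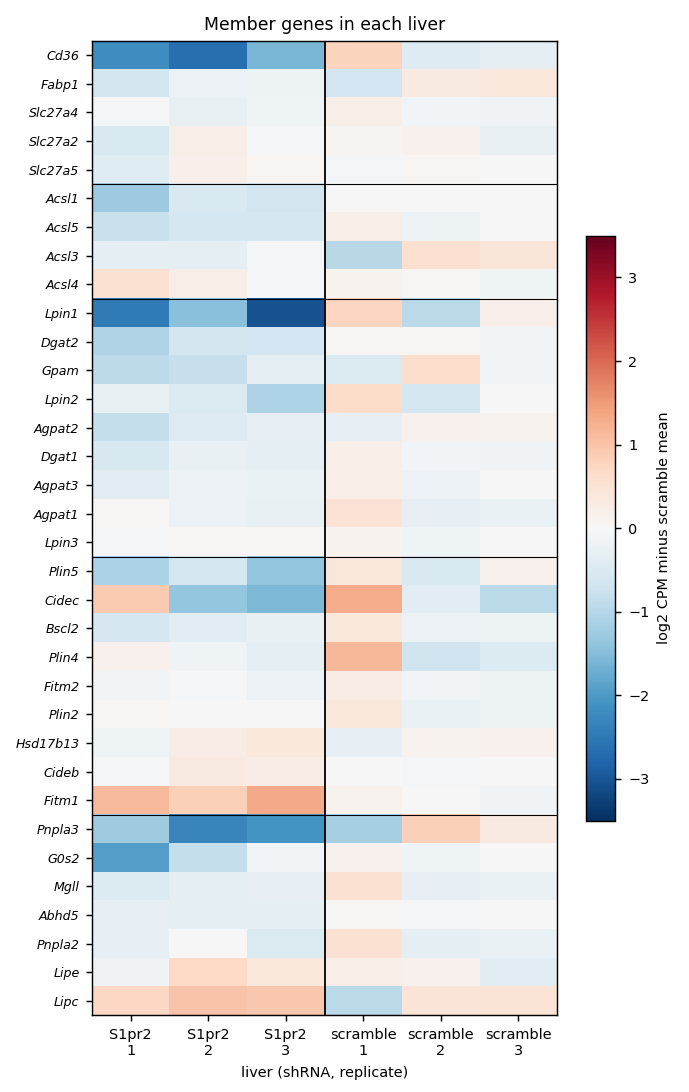
Log2 CPM of each of the 34 tested genes in each liver minus the gene's scramble mean (colour, log2 units), genes grouped by step, S1pr2 shRNA livers left of scramble livers. Scramble liver 1 is the highest liver for 20 genes and S1pr2 shRNA liver 1 the lowest for 13.

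Of the 7 lipolysis genes 0 passed the edgeR test, with 5 negative and 2 positive log2 fold changes. Pnpla3 (116939), a lipase-like droplet protein, had 1.67, 0.735 and 0.878 CPM in S1pr2 shRNA livers 1 to 3, against 1.78, 7.34 and 5.14 CPM in scramble livers 1 to 3. Scramble liver 1 lay just above the highest S1pr2 shRNA liver, and the other scramble livers well above it; in FPKM the groups overlapped. Pnpla3 had a log2 fold change of -2.09 (SE 0.56, 95% interval -3.40 to -0.79, edgeR BH-adjusted p = 0.0669). It passed without scramble liver 1 (-2.49, edgeR BH-adjusted p = 0.0195) and by the DESeq2 Wald test (adjusted p = 0.00248). Its expected counts were as low as 11.8 and were not whole in 5 of 6 libraries.

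Abhd5 (67469), the activator of ATGL, had 32.0, 30.3 and 31.0 CPM in S1pr2 shRNA livers 1 to 3, against 40.0, 37.9 and 38.4 CPM in scramble livers 1 to 3. The difference was small and even, with both groups tight and separate in CPM; in FPKM they overlapped. The log2 fold change was -0.32 (SE 0.09, 95% interval -0.52 to -0.12, edgeR BH-adjusted p = 0.0676). Lipc (15450), hepatic lipase, a secreted enzyme that acts on lipoproteins at the sinusoid, had 115, 137 and 133 CPM in S1pr2 shRNA livers 1 to 3, against 36.3, 94.3 and 97.7 CPM in scramble livers 1 to 3. Scramble liver 1 was far below the other scramble livers, and all 3 were below the S1pr2 shRNA livers. Lipc had a log2 fold change of 0.76 (95% interval -0.12 to 1.64, edgeR BH-adjusted p = 0.267), and without scramble liver 1 it was 0.42 (edgeR BH-adjusted p = 0.109).

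The remaining lipolysis genes, Pnpla2, G0s2, Lipe and Mgll, overlapped between groups. Pnpla2, which encodes ATGL, had 85.0, 105 and 72.6 CPM in S1pr2 shRNA livers, against 151, 82.9 and 88.9 CPM in scramble livers (log2 fold change -0.30, edgeR BH-adjusted p = 0.532; 0.027 without scramble liver 1). G0s2 had 11.9, 25.5 and 42.9 CPM in S1pr2 shRNA livers, against 51.2, 41.1 and 45.6 CPM in scramble livers. Only S1pr2 shRNA liver 3 reached into the scramble range (log2 fold change -0.78, edgeR BH-adjusted p = 0.335; -0.43 without S1pr2 shRNA liver 1 and -1.31 without S1pr2 shRNA liver 3). Lipe, hormone-sensitive lipase, and Mgll, monoacylglycerol lipase, had log2 fold changes of 0.33 and -0.41 (edgeR BH-adjusted p = 0.447 and 0.304), and Mgll was at -0.10 without scramble liver 1. The summed FPKM of the 7 lipolysis genes overlapped, at 196, 209 and 225 in S1pr2 shRNA livers, against 247, 188 and 205 in scramble livers.

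**Figure D5:**
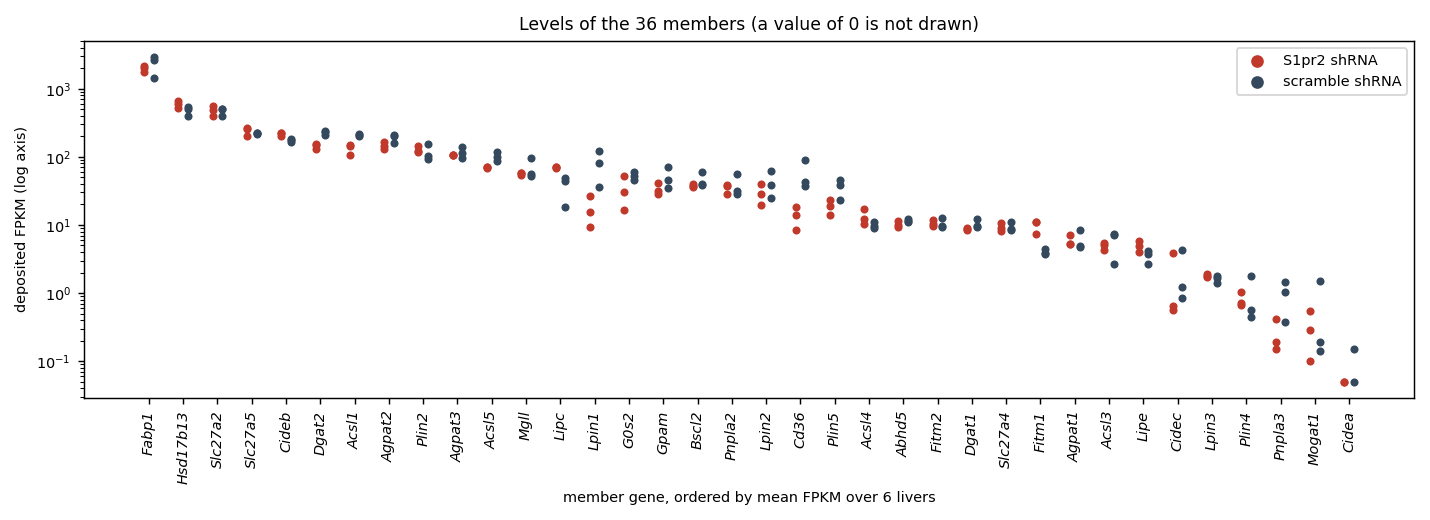
FPKM of the 36 genes in each liver (log scale), ordered by the mean over the 6 livers, S1pr2 shRNA livers left of scramble livers and values of 0 (Cidea in 1 liver of each group) not drawn. Fabp1 is the highest, and Mogat1 and Cidea are the lowest.

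A further 55 symbols of triglyceride and droplet biology were listed, of which 50 were found and 46 tested. Of these 46, 5 fell, 1 rose and 40 did not pass, beside 4.64% of all tested genes that fell and 3.02% that rose. Their median log2 fold change was -0.06, beside 0.01 for all tested genes. Gpat3 (231510), a glycerol-3-phosphate acyltransferase of the endoplasmic reticulum, had 5.92, 7.78 and 6.62 CPM in S1pr2 shRNA livers, against 18.0, 13.6 and 14.4 CPM in scramble livers. This put Gpat3 at a log2 fold change of -1.18 (SE 0.16, edgeR BH-adjusted p = 0.00772), with no overlap. Ces1d (104158), a carboxylesterase that mobilises stored triglyceride, had 37.0, 54.9 and 60.6 CPM in S1pr2 shRNA livers, against 127, 208 and 213 CPM in scramble livers. Its log2 fold change was -1.84 (SE 0.26, edgeR BH-adjusted p = 0.0103), with no overlap, but its counts were not whole in any library, as with reads shared among close paralogs. Lclat1, a lysocardiolipin acyltransferase, fell by 0.88 (SE 0.17, edgeR BH-adjusted p = 0.0250) and Dgka, a diacylglycerol kinase, by 0.81 (SE 0.16, edgeR BH-adjusted p = 0.0256). The gene of this list that rose was Hsd17b11, a droplet-associated dehydrogenase, with a log2 fold change of 0.62 (SE 0.15, edgeR BH-adjusted p = 0.0431), and the fifth that fell was Ces1e (-1.86, SE 0.40, edgeR BH-adjusted p = 0.0470). Counts were not whole in 6 of 6 libraries for Dgka and in 5 of 6 for Ces1e.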

How the data were processed

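Total RNA of 6 snap-frozen livers was sequenced on a DNB platform. HISAT2, Bowtie2, RSEM 1.2.12 and DESeq2 with build mm9 are named in the submitters' processing notes; the sources used here give neither their roles nor the strand handling. Per the file headers, the deposited tables give for each gene an expected count (RSEM's estimated number of fragments, unscaled), an FPKM (scaled by the authors to length and mapped fragments) and a mean transcript length. Before testing, each expected count was rounded to the nearest whole number. Genes without a symbol carried 0.204 to 0.255% of the counts.

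The groups were compared in R 4.3.3 with the edgeR 4.0.16 quasi-likelihood F test (two-sided, robust, group as the only factor) after filterByExpr (minimum count 10) and TMM normalisation. This left 12230 genes, with Benjamini-Hochberg adjustment over all of them and a threshold of 0.05. Intervals come from that fit. On counts simulated for this comparison (12098 genes), 59% of genes changed by a log2 fold change of 1 and 90% of those changed by 2 were recovered. All 15 pairs of libraries differed beyond sampling noise. Alternatives used DESeq2 1.42.0, limma 3.58.1, other scalings and filters, FPKM, a replicate block and each liver left out.

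The members and lists were chosen with earlier results of these data known. A gene is given value by value if it passed the test, if its groups did not overlap or if its log2 fold change was at least 1 in size. Of the other pathway lists, up to 4 genes of smallest p among those past the test are named; marker lists are given as totals. Ces1e, Hsd17b11, Cyp4a14, Cyp4a10, Srebf1, Mlxipl, Lyve1, Alb, Fabp4 and the 4 endothelial markers that rose were added after their values were seen. So were Apoa1, Fasn, Scd1 and Acly. Exon overlaps are from GENCODE M21 on GRCm38.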

Additional observations from a re-analysis of the deposited data

How the results depend on the processing

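The number of all tested genes called was 937, with 60.6% of them lower; it was 1466 by the DESeq2 Wald test and 231 to 643 with 1 liver left out. With upper-quartile factors 48.5% of the calls were lower, and on FPKM 30.8% (pseudocount 0.1) or 30.6% (pseudocount 1). Of the triglyceride and droplet genes, 3 fell; 7 fell by the DESeq2 Wald test (the same 3 with Acsl1, Lpin1, Plin5 and Pnpla3), and 0 to 3 with 1 liver left out, 0 of them without S1pr2 shRNA liver 2 or 3 or scramble liver 3. The number that rose was 0 to 1 with 1 liver left out. The log2 fold change of S1pr2 missed the threshold on FPKM (-0.90 with pseudocount 0.1, -0.54 with pseudocount 1) and ran from -1.29 to -0.95 with 1 liver left out.

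The deviations of same-numbered livers had correlations of -0.06, 0.22 and -0.12, in order of number. Liver 2 of each group correlated best with liver 2 of the other group, and each remaining liver correlated best with a different number. Groups this small cannot decide whether the numbers pair the livers. With the replicate number as a block, 808 genes were called, 2 of the triglyceride and droplet genes fell and 1 rose; Acsl5 (adjusted p = 0.0648) and S1pr2 (-1.11, adjusted p = 0.0684) were lost, and Plin2 turned to 0.014.

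Some uncalled genes changed sign. With upper-quartile factors Slc27a5 was 0.028 and Plin2 0.055, and Plin2 was 0.013 by limma-voom. On FPKM with pseudocount 0.1, Slc27a2 was 0.032, Slc27a5 0.093, Plin2 0.16, Plin4 0.013 and Fitm2 0.029; with pseudocount 1, Slc27a2 was 0.032, Slc27a5 0.093, Plin2 0.16 and Fitm2 0.026. With 1 liver left out, the lowest and highest values were Slc27a2 -0.28 to 0.081, Slc27a5 -0.15 to 0.12, Agpat1 -0.33 to 0.13, Lpin3 -0.077 to 0.075, Plin2 -0.14 to 0.22, Plin4 -0.69 to 0.50, Cidec -1.89 to 0.46, Fitm2 -0.22 to 0.0090 and Pnpla2 -0.46 to 0.027. The cause of these changes was not tested. Groups of 3 livers limit the precision.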

Other observations

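Lists of lipid regulators outside the 36 genes were also counted, and like the others they were chosen with earlier results known. Of 20 tested targets of SREBP-1 and ChREBP, the factors that drive fat synthesis after feeding, 9 fell, 0 rose and 11 did not pass the edgeR test, beside 4.64% of all tested genes that fell and 3.02% that rose. Their median log2 fold change was -1.22, beside 0.01 for all tested genes. The list includes the genes of the factors themselves, Srebf1 and Mlxipl. These had log2 fold changes of -0.43 and -0.12 (edgeR BH-adjusted p = 0.795 and 0.674), with overlap. Also among the 11 were Fasn, Scd1 and Acly, at -1.70, -1.65 and -1.36 (edgeR BH-adjusted p = 0.109, 0.200 and 0.0970), with overlap. Me1, malic enzyme, had 125, 107 and 176 CPM in S1pr2 shRNA livers, against 421, 537 and 556 CPM in scramble livers, with a log2 fold change of -1.89 (SE 0.22, edgeR BH-adjusted p = 0.00531). Thrsp, a lipogenic regulator, fell by 2.00 (SE 0.24, edgeR BH-adjusted p = 0.00553), Acacb, an acetyl-CoA carboxylase, by 1.43 (SE 0.18, edgeR BH-adjusted p = 0.00671), and Txnip, a glucose-responsive thioredoxin-binding protein, by 1.23 (SE 0.19, edgeR BH-adjusted p = 0.0113).

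Of 30 tested targets of PPAR alpha, the fatty acid sensor of the fasted liver, 0 fell, 1 rose and 29 did not pass the edgeR test, beside the same 4.64% and 3.02% of all tested genes. Their log2 fold changes were negative for 22 and positive for 8, beside 48.6% of all tested genes that were negative. The median was -0.14, beside 0.01 for all tested genes. The most negative were Cyp4a14 and Cyp4a10, at -1.98 and -1.75 (edgeR BH-adjusted p = 0.131 and 0.149), with no overlap. The gene that rose was Acot1, an acyl-CoA thioesterase, with 46.8, 48.9 and 37.3 CPM in S1pr2 shRNA livers, against 23.1, 18.2 and 18.4 CPM in scramble livers. Its log2 fold change was 1.15 (SE 0.15, edgeR BH-adjusted p = 0.00633), and its counts were not whole in any of the 6 libraries.

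Of the markers of other liver cells, 0 of 8 stellate and 0 of 5 cholangiocyte genes tested passed the edgeR test. Log2 fold changes were positive for 7 stellate genes and negative for 1 (median 0.41). For the cholangiocyte genes they were positive for 3 and negative for 2 (median 0.21). The summed FPKM of 8 stellate markers was 67.0, 15.0 and 18.3 in S1pr2 shRNA livers, against 9.30, 18.6 and 42.0 in scramble livers, so the groups overlapped. S1pr2 shRNA liver 1 was the lowest liver for 13 of the 34 triglyceride and droplet genes tested, beside 22.7% of all tested genes. It had the highest sum of the stellate markers and also of the macrophage (141 FPKM), endothelial (95.6 FPKM) and cholangiocyte (79.5 FPKM) markers, and the part of other cells in those values was not tested.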
